A study of Mus musculus with 12 samples.

Results

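The genes described here encode subunits of the mitochondrial oxidative phosphorylation machinery in mouse plasmacytoid dendritic cells. They were chosen by symbol alone: known genes whose names begin with Nduf and a subunit letter, Sdh, Uqcr, Cox with a subunit number, or Atp5, leaving out assembly factors and Cox6a2. The rule found 80 genes of 21573, of which 17590 were known genes. By name, 37 belonged to complex I, 4 to complex II, 8 to complex III, 14 to complex IV and 17 to complex V. RNA came from bone marrow cells of BALB/c animals of postnatal day 56 to 63, cultured for 24 h. Control cells received no oligodeoxynucleotide, and the others received CpG-A, CpG-B or CpG-C, each at 0.5 µM, with 3 libraries in every group and 12 in all. The gate of the sort and its order relative to the culture are not described in the labels. Nothing says that the replicates came from separate animals or cultures, so every p-value measures only the spread between these libraries.

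Oxidative phosphorylation passes electrons from NADH through complex I, or from succinate through complex II, to ubiquinone, then through complex III and cytochrome c to complex IV, which reduces oxygen. Complexes I, III and IV pump protons across the inner mitochondrial membrane, and complex V, the ATP synthase, uses the gradient to make ATP. In plasmacytoid dendritic cells, TLR9 in endosomes detects CpG DNA and type I interferon is secreted, and work on dendritic cells has linked their activation to shifts between respiration and glycolysis. CpG-A, CpG-B and CpG-C are classes of synthetic oligodeoxynucleotide that differ in backbone and in whether they carry a palindrome.

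Promoters are shown for Cox6a1, a highly expressed complex IV subunit with motifs often found at respiratory genes, and for Cox7a2l and Ndufc2, the members that came closest to the threshold of the test. Those of Sco1 and Cycs, genes of the pathway outside the member list that did pass it, are also given. Sequences are from RefSeq on GRCm38.p6 and run from 250 bases before to 50 bases after each annotated gene start. Capitals mark GCGCATGCG (part of the palindrome bound by NRF1) or CCGGAAG (the core bound by ETS factors such as GABP), on either strand; both strands of the palindrome can match in the same place, as in Cox6a1.
Cox6a1: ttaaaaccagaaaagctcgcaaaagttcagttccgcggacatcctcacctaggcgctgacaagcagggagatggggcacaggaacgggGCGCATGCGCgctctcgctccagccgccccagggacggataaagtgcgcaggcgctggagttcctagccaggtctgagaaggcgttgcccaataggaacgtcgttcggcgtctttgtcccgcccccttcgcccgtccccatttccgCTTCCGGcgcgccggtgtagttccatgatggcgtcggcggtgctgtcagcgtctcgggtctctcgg
Cox7a2l: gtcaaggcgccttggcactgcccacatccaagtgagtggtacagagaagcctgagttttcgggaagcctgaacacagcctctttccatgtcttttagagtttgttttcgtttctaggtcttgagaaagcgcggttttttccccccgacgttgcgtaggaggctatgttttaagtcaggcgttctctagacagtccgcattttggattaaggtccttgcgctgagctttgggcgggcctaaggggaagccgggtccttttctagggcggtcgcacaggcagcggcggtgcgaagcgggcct
Ndufc2: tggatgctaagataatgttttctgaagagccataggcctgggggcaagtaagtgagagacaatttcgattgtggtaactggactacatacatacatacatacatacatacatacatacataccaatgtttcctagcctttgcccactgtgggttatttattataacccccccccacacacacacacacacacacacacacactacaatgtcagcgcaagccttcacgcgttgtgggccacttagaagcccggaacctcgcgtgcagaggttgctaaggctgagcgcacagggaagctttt
Sco1: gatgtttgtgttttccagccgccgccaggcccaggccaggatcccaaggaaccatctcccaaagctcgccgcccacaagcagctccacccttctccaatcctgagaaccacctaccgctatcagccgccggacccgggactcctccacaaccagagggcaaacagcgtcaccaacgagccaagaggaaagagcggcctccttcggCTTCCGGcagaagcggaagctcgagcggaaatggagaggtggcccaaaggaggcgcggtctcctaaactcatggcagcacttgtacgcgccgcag
Cycs: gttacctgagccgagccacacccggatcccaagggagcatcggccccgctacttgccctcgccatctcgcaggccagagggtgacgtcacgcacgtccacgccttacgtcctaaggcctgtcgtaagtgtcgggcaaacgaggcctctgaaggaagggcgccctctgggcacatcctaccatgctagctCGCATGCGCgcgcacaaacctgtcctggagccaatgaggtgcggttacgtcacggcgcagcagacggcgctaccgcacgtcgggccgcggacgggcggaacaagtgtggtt
The Cox6a1 sequence lies at chr5:115348909-115349208 on the minus strand. That of Cox7a2l lies at chr17:83514284-83514583 on the minus strand, and that of Ndufc2 at chr7:97399753-97400052 on the plus strand. The Sco1 sequence lies at chr11:67052420-67052719 on the plus strand, and the Cycs sequence at chr6:50566520-50566819 on the minus strand.

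Of the 80 members, 68 had a promoter in the RefSeq table. Shares are of genes, and a gene was counted if any of its promoters held the motif. GCGCATGCG was present in 8 of the 68 members (11.8%). It was present in 1.95% of all 27025 genes with a promoter and in 4.54% of the 8099 of them tested here. AAGATGGC, bound by YY1, was present in 11 members (16.2%), compared with 3.19% of all these genes and 5.89% of those tested. The share with CCGGAAG was 23.5% (16 members) beside 9.93% of all these genes, but 23.1% of those tested had it too. GAAANNGAA, the core of the interferon-stimulated response element, was searched after the values were seen. It was present in 7 members (10.3%) and in 9.76% of all these genes. CCGGAAG and AAGATGGC share letters, and 1 member held both at places that did not overlap. The promoters of Cox7a2l, Ndufc2 and Ndufa12 held none of the 4 motifs within these 300 bases. These matches describe letters only.

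The subunit genes were among the abundant transcripts of these cells. Levels are in FPKM, that is, fragments scaled by transcript length and library size, as deposited. The mean over the 12 libraries had a median of 379 FPKM over the 80 members, 66 members averaged at least 100 FPKM, and 13 averaged at least 1000 FPKM. Together they took between 3.59% and 5.13% of all FPKM in a library. By complex, complex I held 36.7% of the members' FPKM, complex IV 26.6%, complex V 22.2%, complex III 12.4% and complex II 2.06%. The libraries summed to between 866584 and 990103 FPKM, and between 7437 and 10622 genes reached 1 FPKM. Read counts were not used here, so the depth behind a value is unknown and no counting interval is given. In bulk RNA, fewer cells of a type and less RNA per cell cannot be told apart.

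The 11 markers of plasmacytoid dendritic cells, among them Siglech, Bst2, Tcf4 and Tlr9, were all detected and summed to between 7903 and 9295 FPKM in control libraries. Their sum was between 7564 and 10666 FPKM with CpG-A and between 5746 and 10204 FPKM with CpG-C, and lay between 1877 and 3295 FPKM with CpG-B. Cox6a2 is in that list. The listed genes did not all move the same way, so a similar sum does not mean that each marker was unchanged. Klk1 was at 521, 1519 and 1479 FPKM in control libraries. It was at 2573, 3278 and 4555 FPKM with CpG-A and at 2200, 3471 and 5044 FPKM with CpG-C, wholly above control. With CpG-C, Cox6a2 lay wholly below control, and Siglech overlapped control with both classes. The sum without Klk1 was not compared. The 5 monocyte and macrophage markers summed to between 139 and 485 FPKM in control libraries, most of it Ccr2, and to at most 80.5 FPKM in any stimulated library. The 5 natural killer cell markers summed to between 16.7 and 89.0 FPKM in control libraries. They summed to between 43.5 and 147 FPKM with CpG-A, to between 106 and 241 FPKM with CpG-B and to between 26.0 and 159 FPKM with CpG-C. Of that list, Ncr1 was at most 0.06 FPKM in control and between 5.12 and 89.3 FPKM in stimulated libraries. Klrb1c, Klra8, Klre1 and Eomes overlapped control in every class. In control libraries, sums were between 45.9 and 93.6 FPKM for B cell and between 36.4 and 134 FPKM for T cell markers. Conventional dendritic cell markers summed to between 60.3 and 150 FPKM there. In stimulated libraries these sums reached at most 188, 252 and 241 FPKM, in the same order, and at least 16.0, 13.0 and 20.8 FPKM. Neutrophil, erythroid and progenitor markers summed to at most 6.9, 181 and 43.9 FPKM in any library. The part of these other cells in the results below was not tested.

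Of the 80 members, 77 reached 1 FPKM in at least 3 libraries and were tested. The other 3 are alternative isoforms of subunits whose usual form was abundant. Ndufa4l2 was above 0 in a single library, at 0.05 FPKM in CpG-C replicate 1. Cox7a1, the heart and muscle isoform of subunit 7a, was highest in CpG-A replicate 2 at 9.5 FPKM and was listed at 0 in 9 libraries. Cox7b2 was highest in control replicate 1, at 0.2 FPKM. Cox6b2, the testis isoform of subunit 6b, was tested but was listed at 0 in 5 libraries and reached at most 22.0 FPKM, where Cox6b1 lay between 1056 and 1837 FPKM.

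No subunit gene passed the test in any of the 6 comparisons between groups. The test was limma's moderated test on log2(FPKM + 1) over 11641 genes, with Benjamini-Hochberg adjustment and a threshold of 0.05. That fit did not use the replicate numbers. Some fits with other settings, among them a block for the replicate number, called up to 2 members in a comparison and are given at the end. Against control, 0 of 77 members passed with CpG-A, where 1.47% of all genes did. With CpG-B 0 of 77 passed, beside 5.75% of all genes, and with CpG-C 0 of 77 passed, beside 1.86%. Between the classes, 0 of 77 passed for CpG-A against CpG-B (2.43% of all genes), for CpG-A against CpG-C (0% of all genes) and for CpG-B against CpG-C (1.35%). At an unadjusted p below 0.05 the members numbered 6 with CpG-A, 4 with CpG-B and 7 with CpG-C against control, and 6, 0 and 3 in those comparisons between classes. The shares of all genes at that level were 12.8%, 18.6% and 12.7% against control and 14.1%, 4.01% and 11.8% between classes.

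A p that misses the threshold does not show that levels were equal, so the intervals matter. Against control, the 95% interval of the difference lay wholly between -1 and 1 on the log2 scale for 33 members with CpG-A, 26 with CpG-B and 28 with CpG-C. Among all genes tested, that was so for 1.72%, 1.81% and 1.64%. For the classes against each other, it was so for 33 members between CpG-A and CpG-B (1.77% of all genes), 41 between CpG-A and CpG-C (3.59%) and 32 between CpG-B and CpG-C (1.81%). For the other members the interval reached past 1 in size. The median standard error (SE) of a difference was 0.36 over the members and 0.84 over all genes. Most members are abundant, and neither these shares nor the SE were computed for other genes at a similar level. The contrast with all genes is therefore not one between genes of like abundance.

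**Figure D1:**
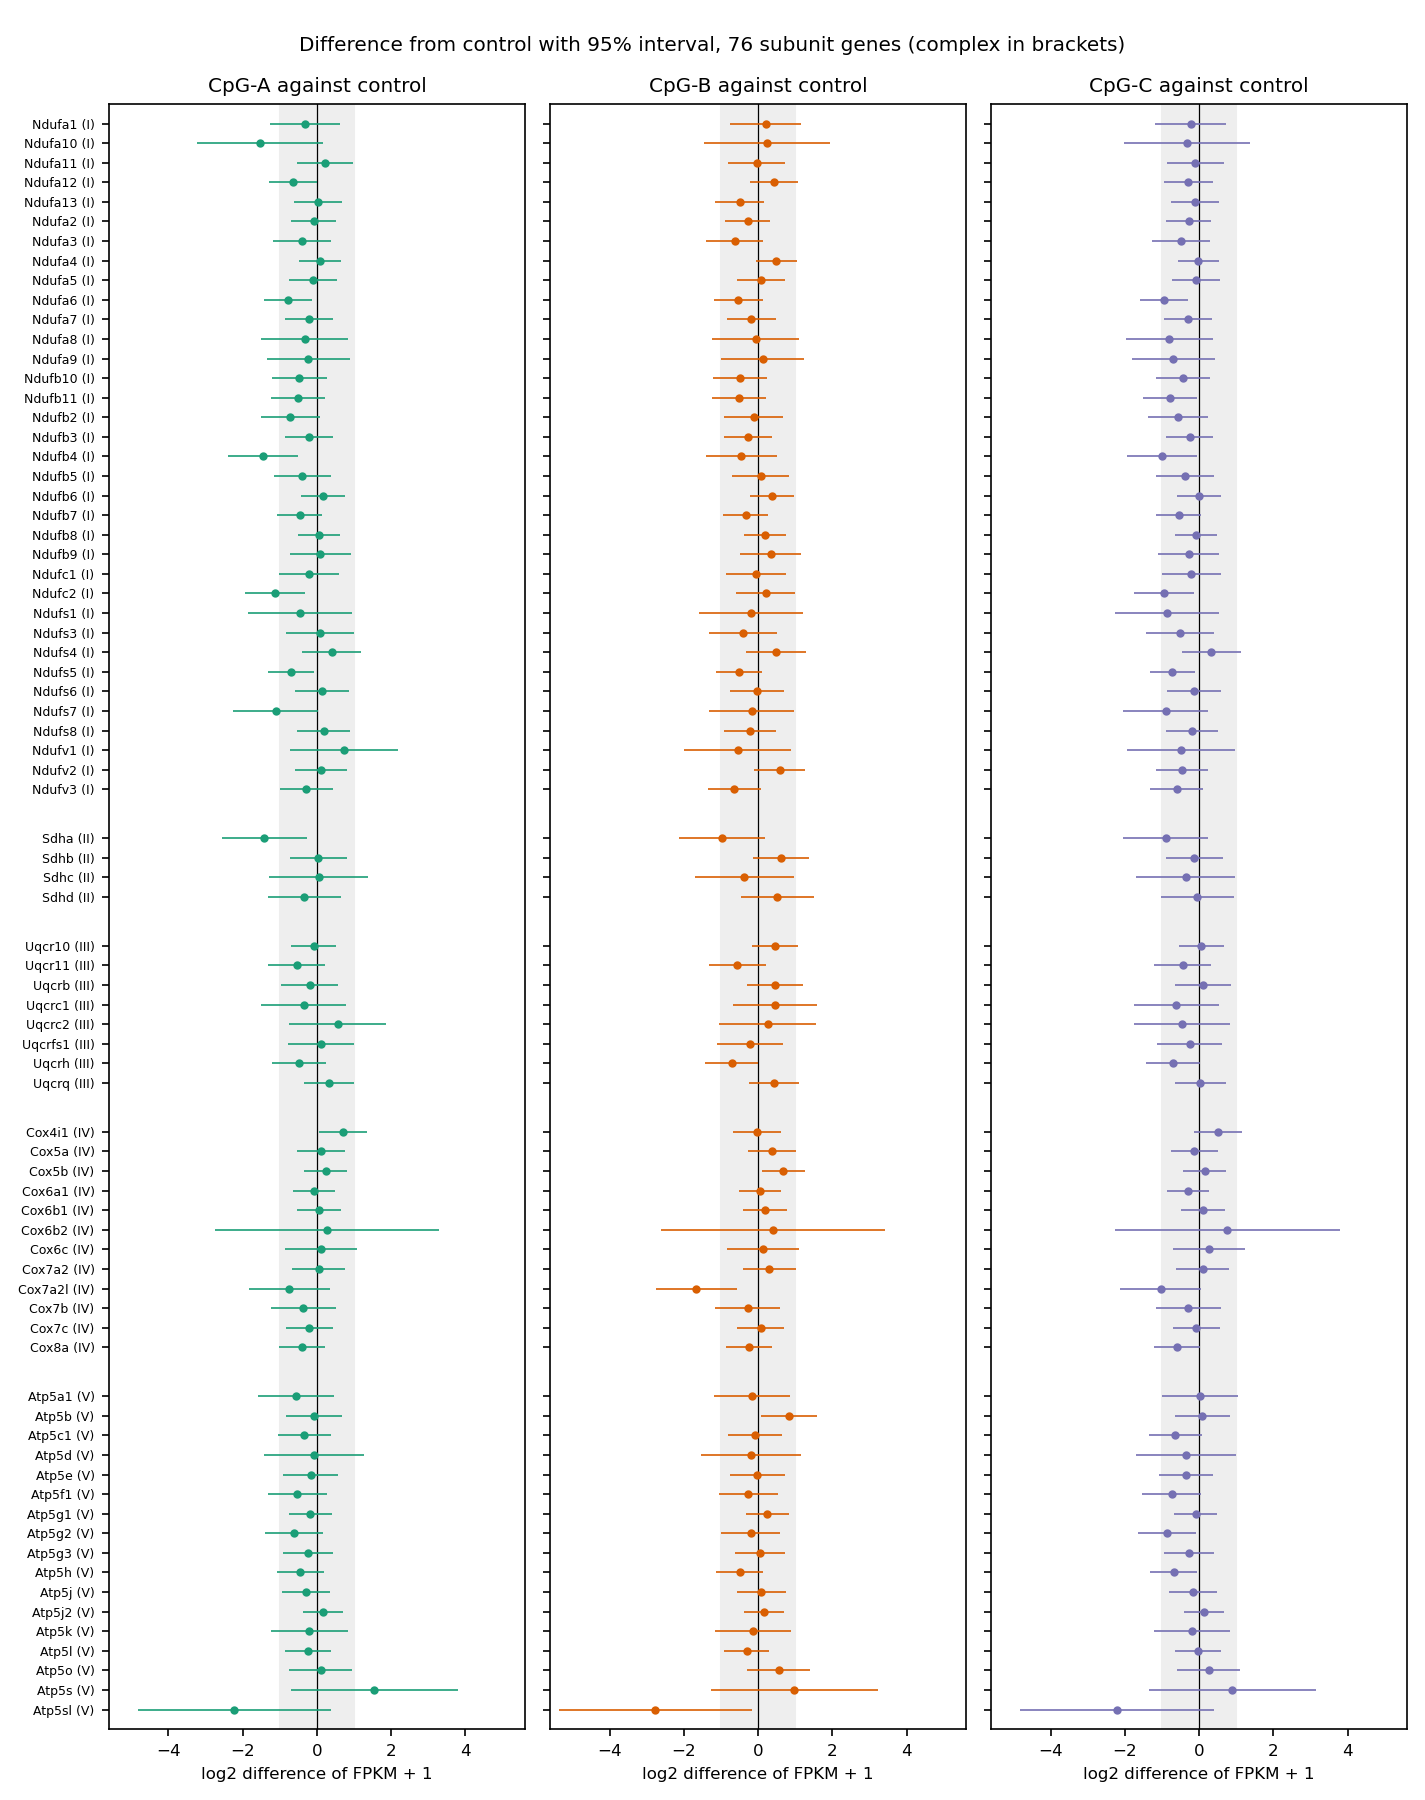
Log2 difference of FPKM + 1 from control (horizontal axis) for 76 subunit genes, ordered by complex, with CpG-A, CpG-B and CpG-C in separate panels. Points are limma's differences of group means, lines their 95% intervals, and the grey band marks -1 to 1; Atp5sl has the lowest point in every panel and Atp5s the highest, both with wide intervals.

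The members varied less between libraries than other genes did. The median SD of log2(FPKM + 1) over the 12 libraries was 0.45 for the 77 members and 1.11 for all genes tested. Genes averaging at least 100 FPKM are a closer comparison. The median SD was 0.40 over the 66 members at that level and 0.65 over the 1192 genes at that level. Atp5j2, subunit f of the ATP synthase, was the most even, between 905 and 1322 FPKM in all 12 libraries. Next came Ndufb8, between 548 and 886 FPKM, and Ndufb3, between 221 and 349 FPKM, both accessory subunits of complex I. At the other end, Atp5sl ran from 0.19 to 50.5 FPKM, Cox6b2 from 0 to 22.0 FPKM, Atp5s from 0.06 to 42.2 FPKM and Ndufa10 from 3.13 to 125 FPKM.

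**Figure D2:**
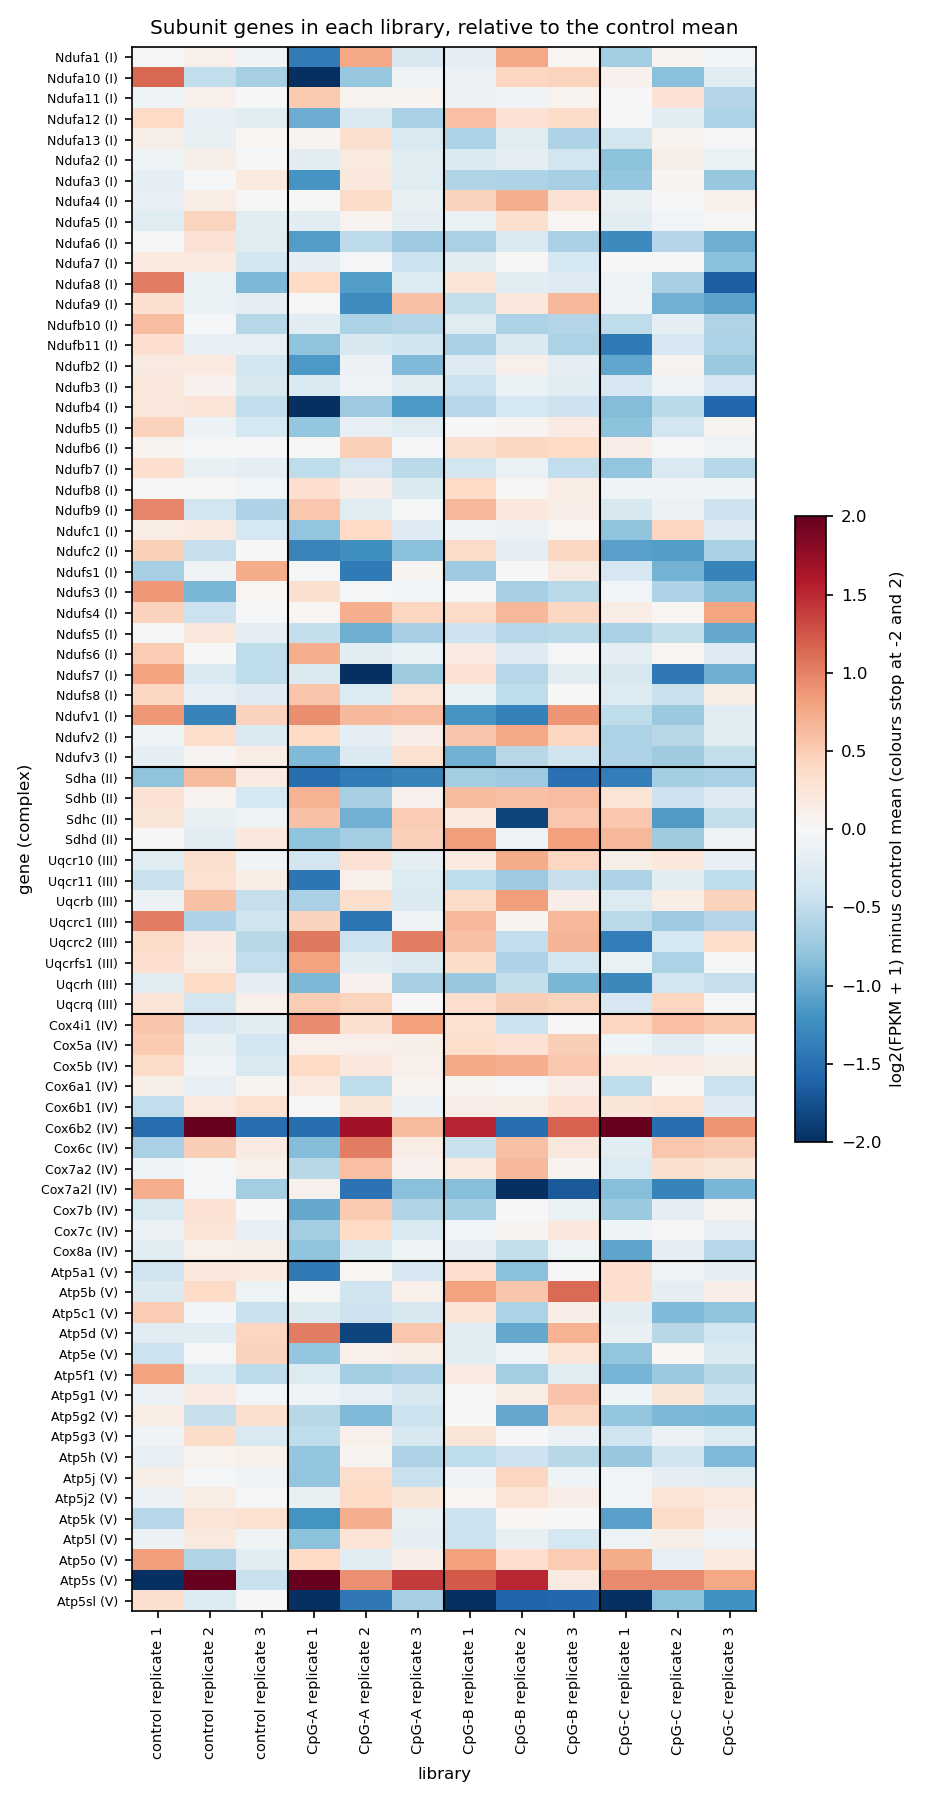
Log2(FPKM + 1) of 76 tested subunit genes in each of the 12 libraries, minus that gene's control mean, with genes grouped by complex and colours that stop at -2 and 2. Cox6b2, Atp5s and Atp5sl have strong colours in several libraries, and short genes such as Ndufa1 and Atp5k are low in CpG-A replicate 1 and high in CpG-A replicate 2.

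Libraries of the same group differed in ways that ran across many members. In CpG-A replicate 1, the 28 members with transcripts under 600 bases had a median of -0.53 relative to each gene's mean over all libraries, and the 32 members over 900 bases had a median of 0.23. In CpG-A replicate 2 the same medians were 0.23 and -0.18. Across the 77 members, Spearman's correlation of that deviation with transcript length was 0.34, -0.39 and 0.37 in CpG-A replicates 1, 2 and 3 and -0.45 in CpG-C replicate 2. These are correlations across genes of the same library, which are not independent replicates. Over all genes tested, the same correlations were -0.01, 0.13 and 0.02 for CpG-A and 0.20 for CpG-C replicate 2. In the comparisons with control, the median differences of the members under 600 and over 900 bases were -0.21 and -0.24 with CpG-A, -0.03 and -0.17 with CpG-B and -0.22 and -0.36 with CpG-C. For CpG-A minus CpG-C they were -0.01 and 0.26, for CpG-A minus CpG-B -0.15 and -0.10, and for CpG-B minus CpG-C 0.20 and 0.16. The part of length in single members' differences was not tested.

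Against control, the median log2 difference over the members was -0.21 with CpG-A, where that of all genes tested was -0.27. With CpG-B it was -0.04 beside -0.26 for all genes, and with CpG-C -0.29 beside -0.22. A positive difference was found for 27 members with CpG-A, 35 with CpG-B and 15 with CpG-C, where 38.9%, 41% and 40.2% of all genes had one. Under median-of-ratios scaling those counts were 39, 59 and 31 of 77, and under upper quartile scaling 34, 58 and 32. Median-of-ratios scaling of the libraries moved the median of all genes to -0.11, 0 and -0.08, and that of the members to 0.00, 0.31 and -0.08. Relative to all genes, the members' median was thus 0.06 with CpG-A, 0.22 with CpG-B and -0.06 with CpG-C as deposited, and 0.12, 0.31 and -0.01 after that scaling. When single libraries were left out of the values as deposited, it ran from -0.11 without control replicate 3 to 0.17 without control replicate 1 with CpG-A, and from 0.08 to 0.36 with CpG-B without the same libraries. With CpG-C it ran from -0.24 to 0.14 without those libraries. Libraries of the groups did not overlap for 0 members higher and 9 lower with CpG-A, where the shares of all genes were 5.78% and 11%. With CpG-B, 7 members were higher and 13 lower without overlap (10.1% and 15.6% of all genes), and with CpG-C 0 were higher and 14 lower (6.64% and 11.2%). All 3 comparisons share the control libraries.

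The classes were also compared with each other. The median over the members was -0.16 for CpG-A minus CpG-B (all genes -0.01), 0.08 for CpG-A minus CpG-C (all genes -0.03) and 0.22 for CpG-B minus CpG-C (all genes -0.05). A positive difference was found for 26, 46 and 57 of 77 members, where 49.7%, 47.6% and 47.8% of all genes had one. Without overlap, 13 members were higher and 2 lower with CpG-B than with CpG-C, beside 9.2% and 9.18% of all genes. For CpG-A against CpG-B the counts were 1 higher and 9 lower (9.49% and 10.2% of all genes), and for CpG-A against CpG-C 4 higher and 0 lower (2.99% and 4.1%). The sign of the members' median held under both other scalings in each of the 3 comparisons. For CpG-A minus CpG-C it became -0.005 without CpG-A replicate 2 and 0.01 without CpG-C replicate 1.

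Summed over complexes, the levels of the groups mostly overlapped. Complex I summed to 16472 ± 2303 FPKM in control libraries (SD, n = 3, as for all sums here), 14033 ± 1452 with CpG-A, 15460.0 ± 745 with CpG-B and 12776 ± 1443 with CpG-C. All CpG-B libraries lay above all CpG-C libraries, and every group overlapped with control. Complex II summed to 776 ± 85.6 FPKM in control, 777 ± 289 with CpG-A, 1042 ± 161 with CpG-B and 702 ± 244 with CpG-C, with all groups overlapping. Complex III summed to 5504 ± 1067, 4623 ± 1252, 5145 ± 454 and 4512 ± 643 FPKM in the same order, again with every group overlapping.
Complex IV was the most even in the means, at 10610.3 ± 238, 10923 ± 846, 10849 ± 358 and 10182 ± 1215 FPKM. Complex V summed to 9627 ± 119 FPKM in control, 8357 ± 1478 with CpG-A, 9406 ± 601 with CpG-B and 8162 ± 602 with CpG-C. For complex V, the 3 CpG-C libraries, at 7799.8, 8857 and 7830.3 FPKM, lay below the 3 control libraries, at 9606, 9754 and 9520.2 FPKM, and below the 3 CpG-B libraries. The ratio of the mean sums of CpG-C to control was 0.848 for complex V, or -0.24 on the log2 scale, and -0.04 after median-of-ratios scaling. The complex V sum includes Atp5g2 and Atp5h, for which the copy measured is uncertain, as described below. Atp5g2 was at 675, 439 and 757 FPKM in control and 354, 325 and 323 FPKM with CpG-C. Atp5h was at 657, 770 and 784 FPKM in control and 434, 560 and 398 FPKM with CpG-C. Atp5s and Atp5sl, which are not core subunits, are also in it. The sum without these genes was not compared. No test is given for a sum over chosen genes.

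**Figure D3:**
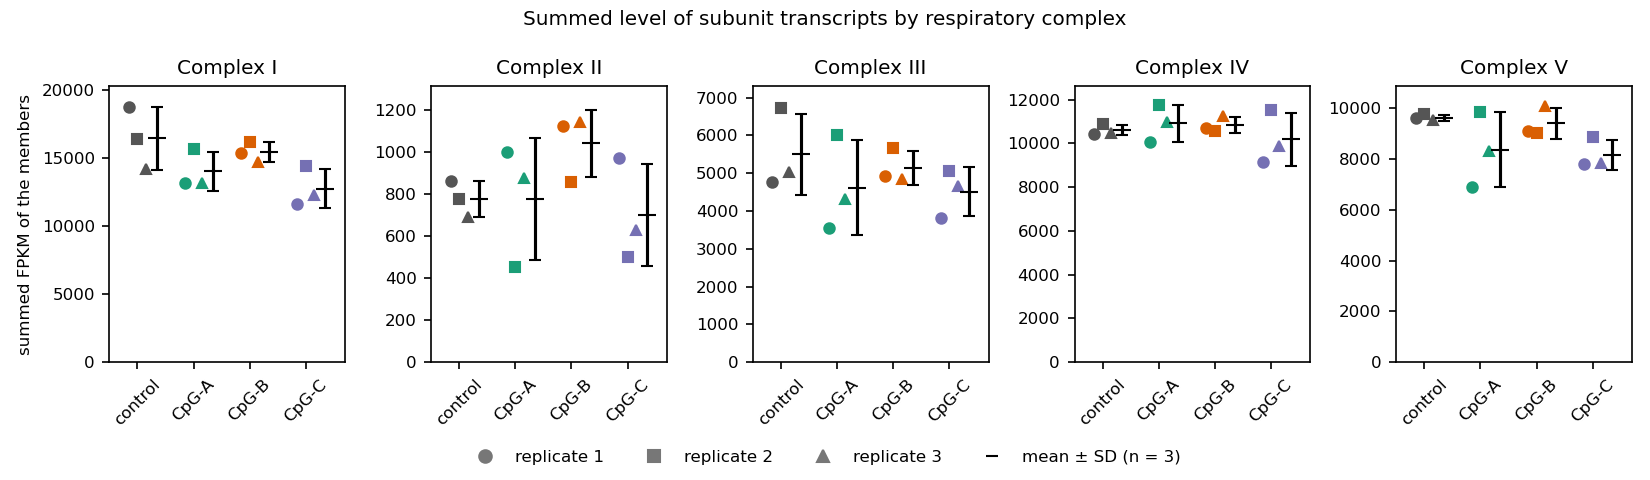
Summed FPKM of the member genes of each complex (vertical axis, from 0, with its own scale in each panel) in the 4 groups. Symbols are the 3 libraries of a group and bars their mean ± SD; for complex V the 3 CpG-C libraries lie below the 3 control libraries, and for complex IV the groups overlap.

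Complex I, the NADH dehydrogenase, has core subunits that carry the redox chemistry and many accessory subunits around them. By the mean over the 12 libraries, its most abundant members were Ndufa2, at 1264 ± 90.6 FPKM in control, Ndufa1, at 1030.2 ± 63.4 FPKM, and Ndufa4, at 826 ± 85.9 FPKM (SD, n = 3). Ndufa4 is now counted with complex IV. Of the 36 complex I members tested, 12 had a positive difference with CpG-A, 13 with CpG-B and 1 with CpG-C against control, on the values as deposited. The shares of all genes were 38.9%, 41% and 40.2%. The 1 with CpG-C was Ndufs4, an accessory subunit of the NADH-oxidising end, at 166 ± 49.7 FPKM against 133 ± 41.6 FPKM. These complex I counts were not repeated under other scalings. Over all 77 members, the CpG-C count moved from 15 to 31 (median-of-ratios) or 32 (upper quartile). Over the 7 core subunits the median difference was 0.07 with CpG-A, -0.21 with CpG-B and -0.49 with CpG-C, and over the 29 accessory subunits it was -0.29, -0.05 and -0.29.

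Ndufc2, an accessory subunit of the membrane arm, is described first. It was at 258, 174 and 263 FPKM in the CpG-B libraries and at 274, 143 and 196 FPKM in the control libraries. In CpG-A libraries it was at 78.0, 83.5 and 110.0 FPKM, and in CpG-C libraries at 92.45, 90.5 and 126 FPKM. The CpG-A and CpG-C libraries all lay below all control and CpG-B libraries. For CpG-A against CpG-B the log2 difference was -1.34 (SE 0.375, limma adjusted p = 0.0818). It passed with library weights (-1.28, adjusted p = 0.0412) and with a block for the replicate number (-1.34, adjusted p = 0.0392). What a replicate number shares is not given in the labels. For CpG-B against CpG-C the difference was 1.15 (adjusted p = 0.19). Against control it was -1.13 with CpG-A (adjusted p = 0.19), -0.95 with CpG-C (adjusted p = 0.289) and 0.21 with CpG-B (adjusted p = 0.823). A predicted gene, Gm16053, overlaps Ndufc2 on the same strand, and whether the counting separated them is not given in the sources used here. Ndufc2 and Ndufa12 were singled out after their values were seen.

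Ndufa12, an accessory subunit of the matrix arm, had a similar order. Its levels were 1137, 915 and 965 FPKM with CpG-B and 376, 612 and 476 FPKM with CpG-A. Control libraries were at 983, 669.8 and 633 FPKM, and CpG-C libraries at 750.0, 636 and 481 FPKM. All CpG-B libraries lay above all CpG-A and CpG-C libraries and overlapped control through control replicate 1. The log2 difference of CpG-A from CpG-B was -1.06 (SE 0.304, limma adjusted p = 0.0875). It passed the test under upper quartile scaling (-1.20, adjusted p = 0.0496), with library weights (adjusted p = 0.0412) and with the replicate block (adjusted p = 0.0476).

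Ndufb4, an accessory subunit of the membrane arm, was at 548, 562 and 333 FPKM in control libraries. It was at 82.5, 281 and 209.6 FPKM with CpG-A and at 257, 323 and 156 FPKM with CpG-C, so that both groups lay wholly below control. With CpG-B it was at 314, 367 and 351 FPKM, which overlapped control. The log2 difference from control was -1.46 with CpG-A (SE 0.443, limma adjusted p = 0.137), -0.99 with CpG-C (adjusted p = 0.369) and -0.45 with CpG-B (adjusted p = 0.649).

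Ndufa6, a small accessory subunit of the matrix arm, had the smallest adjusted p of any member for CpG-C against control and is named for that after the values were seen. It was at 745, 936 and 646 FPKM in control libraries and at 317, 511 and 389.7 FPKM with CpG-C. With CpG-A it was at 352, 533 and 464 FPKM, and with CpG-B at 490.2, 622 and 489.6 FPKM. The control libraries were above every stimulated library. The log2 difference with CpG-C was -0.94 (SE 0.305, limma adjusted p = 0.162), and those with CpG-A and CpG-B were -0.79 (adjusted p = 0.283) and -0.53 (adjusted p = 0.384). Ndufv2, a core iron-sulphur subunit, was at 353, 408 and 322 FPKM with CpG-B and at 154, 162 and 207 FPKM with CpG-C, without overlap. That log2 difference was 1.05 (SE 0.324, limma adjusted p = 0.164).

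Ndufa10, an accessory subunit, had a large fitted difference that rested on few libraries. It was at 3.13 FPKM in CpG-A replicate 1, beside 32.4 and 52.3 FPKM in the other CpG-A libraries and 125, 39.5 and 34.7 FPKM in control. Its log2 difference of -1.54 with CpG-A (limma adjusted p = 0.433) became 0.15 without the 4 libraries numbered 1. Ndufv1, the core subunit that binds NADH, was at 64.8, 53.0 and 51.6 FPKM with CpG-A and at 62.2, 12.7 and 46.5 FPKM in control, with a difference of 0.73 (limma adjusted p = 0.694). That difference ran from 0.06 without control replicate 2 to 1.17 without control replicate 1.

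Complex II is succinate dehydrogenase, shared with the citric acid cycle. Sdha, its catalytic flavoprotein, was far less abundant than the iron-sulphur subunit Sdhb. Sdha was at 26.4, 73.2 and 52.1 FPKM in control libraries and at 15.8, 17.1 and 17.8 FPKM with CpG-A, without overlap. It was at 28.5, 27.9 and 16.0 FPKM with CpG-B and at 17.35, 28.9 and 29.3 FPKM with CpG-C, both overlapping control. The log2 difference with CpG-A was -1.41 (SE 0.54, limma adjusted p = 0.276), and Sdha was named after its values were seen. Of the 3 Sdha transcripts in the authors' table, 2 were named only by the sequencing provider. Sdhb was at 671, 651 and 666 FPKM with CpG-B, all above its control libraries at 526, 452 and 338 FPKM, with a log2 difference of 0.62 (SE 0.358, limma adjusted p = 0.388). The membrane anchors Sdhc and Sdhd averaged 134 ± 20.2 and 153 ± 22.0 FPKM in control (SD, n = 3), and every class overlapped control.

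Complex III passes electrons from ubiquinol to cytochrome c. Its 3 most abundant members by the mean over the 12 libraries were small subunits: Uqcr11 at 1615 ± 405 FPKM in control, Uqcrh, the hinge protein, at 1417 ± 364 FPKM, and Uqcr10 at 974 ± 203 FPKM (SD, n = 3). The core protein Uqcrc2 averaged only 33.5 ± 10.7 FPKM. Uqcrh was at 1188, 1837 and 1226 FPKM in control libraries and at 823, 1002 and 735 FPKM with CpG-B, without overlap. With CpG-C it was at 570.1, 1074 and 1004 FPKM, also wholly below control. The log2 differences were -0.71 with CpG-B (SE 0.339, limma adjusted p = 0.277) and -0.71 with CpG-C (adjusted p = 0.41). Uqcr10 averaged 1333 ± 256 FPKM with CpG-B, which overlapped control.

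Complex IV, cytochrome c oxidase, held the most abundant member of all by the mean over the 12 libraries. Cox4i1, the ubiquitous isoform of the largest nuclear-encoded subunit, was at 1937, 1045 and 1128 FPKM in control and at 2528, 1648 and 2325 FPKM with CpG-A. It was at 1626, 979.7 and 1329.8 FPKM with CpG-B and at 1781, 1991 and 1890.0 FPKM with CpG-C. The CpG-A libraries overlapped control through control replicate 1 and lay wholly above CpG-B. The log2 difference from control was 0.69 with CpG-A (SE 0.301, limma adjusted p = 0.346) and 0.52 with CpG-C (adjusted p = 0.508), and CpG-A minus CpG-B was 0.73 (adjusted p = 0.282). Cox8a and Cox6b1 followed by that mean, and were at 2034 ± 263 and 1536 ± 420 FPKM in control (SD, n = 3). The log2 difference of Cox6b1 from control stayed between 0.05 and 0.19 across the classes, with adjusted p-values of 0.968, 0.775 and 0.937.

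Cox7a2l, also called SCAF1, helps to join complexes III and IV into supercomplexes and is named among the subunit 7a isoforms. It was at 470.3, 275 and 175 FPKM in control libraries and at 156, 51.4 and 87.6 FPKM with CpG-B. With CpG-C it was at 157, 112 and 149 FPKM, and with CpG-A at 299, 101 and 159 FPKM. The CpG-B and CpG-C libraries lay wholly below control, and the CpG-A libraries overlapped it. The log2 difference with CpG-B was -1.66 (SE 0.509, limma adjusted p = 0.0753), the smallest adjusted p of any member in any comparison. With library weights, which give uneven libraries less influence, it was -1.43 and passed the test (adjusted p = 0.0464). With a block for the replicate number it was -1.66 and passed too (adjusted p = 0.0147), though the labels do not say what a number shares. With CpG-C it was -1.03 (adjusted p = 0.423) and with CpG-A -0.74 (adjusted p = 0.578). Its relative Cox7a2, the usual liver-type isoform, averaged 525 ± 36.3 FPKM in control and 655 ± 148 FPKM with CpG-B (SD, n = 3), which overlapped. The summed markers of plasmacytoid dendritic cells were also lowest with CpG-B, as given above, and their part in the Cox7a2l values was not tested.

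Cox5b, a zinc-binding subunit, was at 705, 518 and 437 FPKM in control and at 930.1, 901 and 788 FPKM with CpG-B, without overlap. It was at 712, 629 and 581 FPKM with CpG-A and at 623, 605 and 586 FPKM with CpG-C, both overlapping control. The log2 difference with CpG-B was 0.68 (SE 0.272, limma adjusted p = 0.185). After scaling to a common upper quartile it was 1.00 and passed the test (adjusted p = 0.0352).

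In complex V, Atp5l, Atp5j2 and Atp5j had the highest means over the 12 libraries and were at 1509.8 ± 187, 1008 ± 99.4 and 1071 ± 81.0 FPKM in control (SD, n = 3). They are subunits g and f and coupling factor 6 of the ATP synthase. Atp5b, the catalytic beta subunit, was at 122, 197 and 139 FPKM in control and at 263, 219 and 331 FPKM with CpG-B, without overlap. With CpG-A it was at 153, 113 and 161 FPKM, and with CpG-C at 188, 131 and 163 FPKM. The log2 difference with CpG-B was 0.83 (SE 0.351, limma adjusted p = 0.212), beside -0.09 with CpG-A (adjusted p = 0.951) and 0.09 with CpG-C (adjusted p = 0.96).

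Subunit c, which forms the rotor ring, is made from 3 genes that encode the same mature protein. Of their summed FPKM, Atp5g1 made up 50.2 ± 4.73% in control, 55.5 ± 3.33% with CpG-A, 56.3 ± 6.84% with CpG-B and 59.9 ± 4.68% with CpG-C (SD, n = 3). Atp5g2 made up 32.6 ± 8.66%, 26.3 ± 4.54%, 26.9 ± 7.99% and 22.2 ± 3.24%, and Atp5g3 between 16.8% and 18.2% on average. For each of the 3 genes, the shares of every class overlapped those of control. The deposited coordinates of Atp5g2, an interval on chromosome 17 as long as its transcript, differ from RefSeq, which places the gene on chromosome 15. The same holds for Ndufs5 (chromosome 16, RefSeq 4) and Atp5h (chromosome 15, RefSeq 11), so which copy the values of these 3 members describe is uncertain.

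The lowest and highest fitted differences of all belonged to genes that carry an Atp5 name but are not core ATP synthase subunits. Atp5sl, now named Dmac2 and known from complex I assembly, was at 50.5, 33.0 and 39.15 FPKM in control. It was at 0.74, 14.3 and 25.0 FPKM with CpG-A, at 0.19, 12.5 and 12.9 FPKM with CpG-B and at 0.68, 22.3 and 16.9 FPKM with CpG-C. All stimulated libraries lay below all control libraries, and replicate 1 was near 0 in each class. Of the 5 Atp5sl transcripts in the authors' table, 3 were named only by the sequencing provider, so its values do not describe the annotated transcripts alone. The log2 differences were -2.22, -2.76 and -2.22 (SE 1.22), with limma adjusted p-values of 0.466, 0.237 and 0.482. When single libraries were left out they ran from -3.001 to -1.05 with CpG-A, from -3.36 to -1.59 with CpG-B and from -2.91 to -1.01 with CpG-C, in each class nearest to 0 without replicate 1 of that class. Atp5s, now named Dmac2l and known as factor B, was at 0.06, 42.2 and 3.23 FPKM in control, wider than the range of all stimulated libraries. Its fitted differences of 1.55, 0.97 and 0.89 rest on control replicate 1 and passed no test. Provider-named transcripts made up 4 of the 5 of Atp5s.

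**Figure D4:**
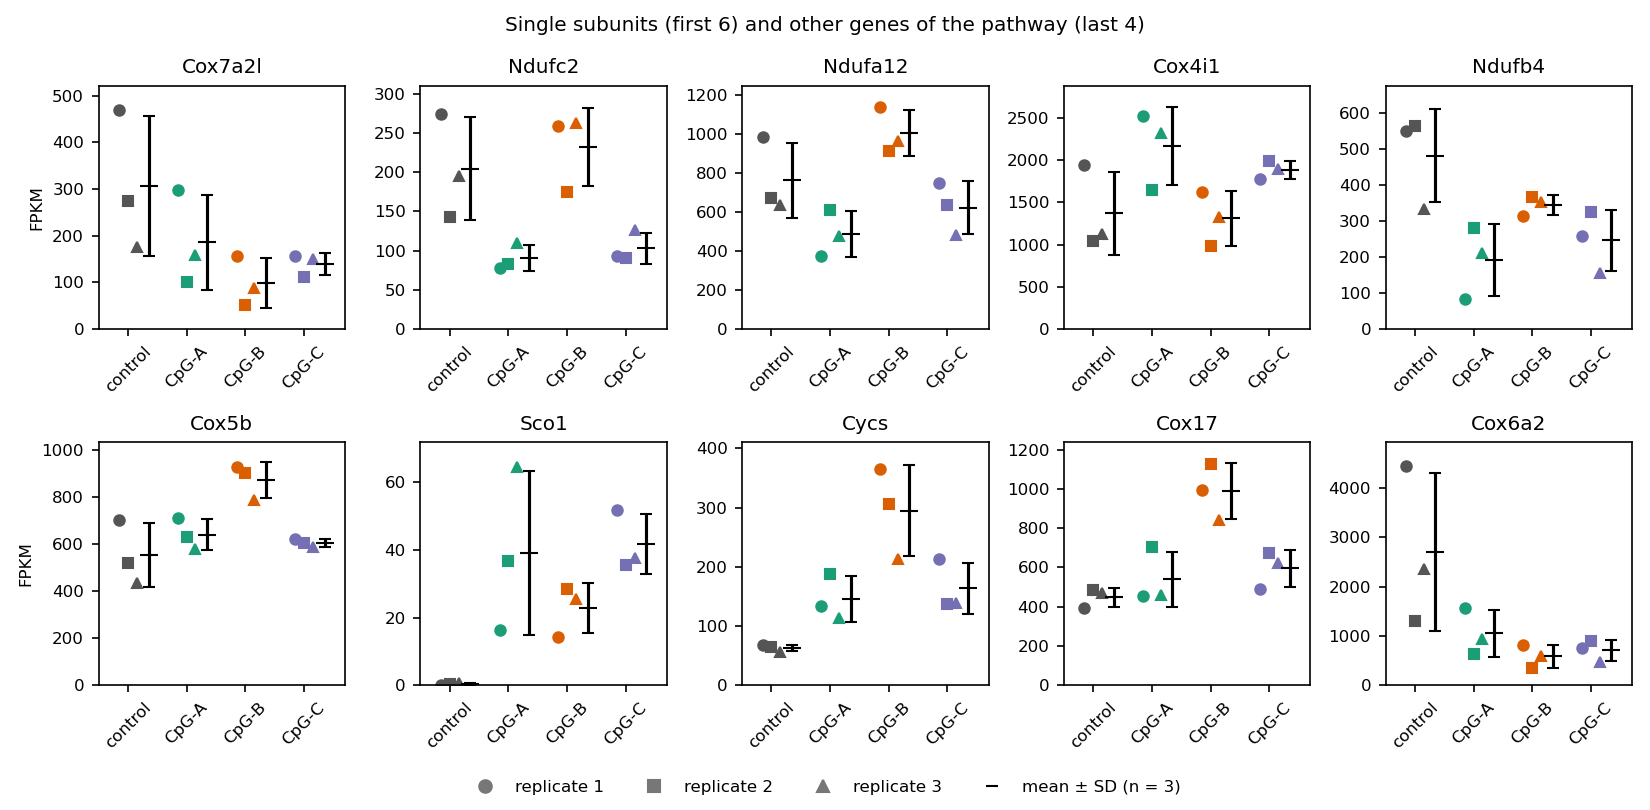
FPKM (vertical axis, from 0, own scale in each panel) in each library for 6 subunit genes, Cox7a2l, Ndufc2, Ndufa12, Cox4i1, Ndufb4 and Cox5b, and for 4 other genes of the pathway, Sco1, Cycs, Cox17 and Cox6a2. Symbols are libraries and bars mean ± SD; Sco1 is below 1 FPKM in all control libraries and above 14 FPKM in all stimulated libraries, and Cox7a2l in CpG-B lies below all its control libraries.

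Among other genes of the pathway, taken from lists of names, 4 passed the test in some comparison. Tested were 45 assembly factors and 7 electron carriers and subunits outside the rule. The lists also gave 16 genes of mitochondrial biogenesis and transcription and 17 of the citric acid cycle. Against control, all 4 passed with CpG-B, where 5.75% of all genes did. Only Sco1 passed with CpG-A and with CpG-C, beside 1.47% and 1.86% of all genes. Sco1, a copper chaperone that serves the CuA site of complex IV, rose with every class. It was at 0.05, 0.4 and 0.58 FPKM in control libraries. It was at 16.2, 36.7 and 64.5 FPKM with CpG-A, at 14.35, 28.4 and 25.5 FPKM with CpG-B and at 51.8, 35.5 and 37.6 FPKM with CpG-C. The log2 differences were 4.72 with CpG-A (limma adjusted p = 0.000881), 4.11 with CpG-B (adjusted p = 0.00138) and 4.99 with CpG-C (adjusted p = 0.000509), with an SE of 0.648. On the log2(FPKM + 1) scale these understate the change of a gene near 0 in control. Of its 7 transcripts in the authors' table, 6 were named only by the sequencing provider, so the value does not describe the annotated transcript alone. The classes did not separate from each other for Sco1, with adjusted p-values of 0.756, 1 and 0.677.

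Cycs, which encodes cytochrome c, rose with CpG-B. It was at 68.0, 64.8 and 56.7 FPKM in control libraries and at 365, 306 and 214 FPKM with CpG-B, a log2 difference of 2.18 (SE 0.371, limma adjusted p = 0.00252). With CpG-A it was at 134, 188 and 114 FPKM, and with CpG-C at 214, 138 and 139 FPKM, also above all control libraries. Those differences were 1.16 (adjusted p = 0.163) and 1.33 (adjusted p = 0.0905), and CpG-B did not differ from either past the threshold (adjusted p = 0.205 and 0.38). Cox17, the chaperone that hands copper to Sco1, rose with CpG-B, from 394, 483 and 468 FPKM to 993, 1128 and 844 FPKM. Its log2 difference was 1.13 (SE 0.289, limma adjusted p = 0.0316). The call was lost when any control or CpG-B library, or CpG-C replicate 3, was left out, with adjusted p-values between 0.0502 and 0.12, and without the 4 libraries numbered 1 (0.102). The predicted gene Gm21987 overlaps Cox17 on the same strand.

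Cox6a2, the heart and muscle isoform of subunit 6a and a marker of plasmacytoid dendritic cells in the mouse, fell with CpG-B. It was at 4443, 1299.6 and 2364 FPKM in control and at 814, 355 and 591 FPKM with CpG-B, a log2 difference of -2.10 (SE 0.463, limma adjusted p = 0.0133). The call was lost without control replicate 1 (adjusted p = 0.0587), without CpG-B replicate 2 (adjusted p = 0.0704), with no filter on low values (adjusted p = 0.0919) and under median-of-ratios scaling (adjusted p = 0.0535). With CpG-A it was at 1575, 639.6 and 944 FPKM (-1.28, adjusted p = 0.244), and with CpG-C at 757, 896 and 480.03 FPKM (-1.79, adjusted p = 0.066). The ubiquitous isoform Cox6a1, a member, averaged 1558 ± 160 FPKM in control and 1616 ± 97.5 FPKM with CpG-B (SD, n = 3).

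By list, 45 assembly factors were tested and 1 rose with CpG-A, 2 with CpG-B and 1 with CpG-C, with medians of -0.70, -0.08 and -0.49. Over all genes tested, 1.47%, 5.75% and 1.86% passed in those comparisons, in either direction. The assembly factors that rose are Sco1 in each class and Cox17 with CpG-B. Of 7 electron carriers and subunits outside the rule, 0 passed with CpG-A or CpG-C, and 1 rose and 1 fell with CpG-B. None of 16 genes of mitochondrial biogenesis and transcription passed against control, with medians of -0.87, -0.49 and -0.77. None of 17 genes of the citric acid cycle did, with medians of -0.01, -0.10 and -0.21. Over all genes those medians were -0.27, -0.26 and -0.22. Subunits encoded by the mitochondrial genome were not analysed here.

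The authors' deposited table gives far more calls. In the authors' deposited table, 73, 75 and 74 of the 77 tested members had a q-value below 0.05 for CpG-A, CpG-B and CpG-C against control, where 94.2%, 95.9% and 94.2% of the tested genes did. By the signs in the authors' deposited table, of these 19 were higher and 54 lower with CpG-A, 27 and 48 with CpG-B and 10 and 64 with CpG-C. The sign of the log2 ratio in the authors' deposited table was that of limma's difference for 70, 70 and 72 of the 77 members. The test behind those q-values is not given in the sources used here. For reading any single member, 32 of the 80 overlap another annotated gene, 22 of them on the opposite strand, and the sources used here do not say whether the counting used strand.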

How the data were processed

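RNA-seq of 12 libraries was used, 3 in each of 4 groups taken from the treatment label. The authors deposited a single gene table with FPKM values to 2 decimals. Per the submitters' processing notes, HISAT, Bowtie2 2.2.5, StringTie, GATK, RSEM 1.2.8 and the build mm10 were used; their order and role are not given in the sources used here. Log2 ratios, p-values and q-values for pairs of groups were also deposited by the authors and entered no test. Transcript length and coordinates are as deposited, counted from 1. Of its 21574 lines, 1 was malformed and was dropped.

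The log2 of each FPKM value plus 1 was taken. A gene was tested if 3 or more libraries reached 1 FPKM, which 11641 genes did. All libraries entered a single limma fit (version 3.58.1, in R 4.3.3) that estimated each group's mean, with a mean-variance trend, 8 residual and 6.81 prior degrees of freedom. Benjamini-Hochberg adjustment ran over all genes tested, and the threshold was 0.05. Adjusted p-values are limma's throughout. An exact permutation test of 3 libraries against 3 cannot go below 0.1 and was not used. Sums, shares, lengths and motifs were described with no test.

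Members, lists, marker genes and tests were chosen with earlier results of these data known. Named members are, by rule, the 3 most abundant of each complex, for each class against control the 3 highest and 3 lowest differences among members reaching a group mean of 5 FPKM, and alternative isoforms; the other members named were chosen after their values were seen. A gene that the rule names is not reported here. Of the isoforms in that rule, Cox4i2, Cox8b and Cox8c were not analysed here. All 80 members matched RefSeq by gene number, and 77 had the same symbol there. Alternatives covered the added constant, the filter, 2 scalings, the libraries in the fit, a replicate block, library weights and leaving libraries out.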

Additional observations from a re-analysis of the deposited data

How the results depend on the processing

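The count of subunit genes called was 0 in all 6 comparisons when 0.1 was added, with no filter, with a filter at 5 FPKM, under median-of-ratios scaling, with only the groups compared, without the 4 libraries numbered 1, and when each library was left out in turn (0 to 0). Upper quartile scaling called 1 for CpG-B against control (Cox5b, adjusted p = 0.0352) and 1 for CpG-A against CpG-B (Ndufa12, 0.0496). Library weights called 1 (Cox7a2l, 0.0464) and 2 (Ndufa12 and Ndufc2, both 0.0412), and the replicate block called 1 (Cox7a2l, 0.0147) and 2 (Ndufa12, 0.0476, and Ndufc2, 0.0392) in the same comparisons; the cause was not tested. The labels number the replicates without saying what a number shares. Deviations of same-numbered libraries correlated at 0.061 to 0.17, above 0.1 in 11 of 18 pairs. Differently numbered libraries of different groups correlated at -0.131 to 0.029, so every same-numbered pair lay above every other pair. By mean correlation, 12 of 12 libraries went best with their own number. The main fit did not use these numbers. The block raised the calls over all genes from 171 to 285, 669 to 886 and 217 to 310 against control, from 283 to 434 for CpG-A against CpG-B and from 157 to 276 for CpG-B against CpG-C. Library weights gave 212, 1063 and 406 against control and 509 and 587 in those comparisons between classes, and upper quartile scaling gave 676 for CpG-B against control and 300 for CpG-A against CpG-B.

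Summed levels against control (log2 ratio) moved with scaling. Under the median-of-ratios and the upper quartile scaling they became, with CpG-B, 0.255 and 0.234 for complex I, 0.76 and 0.744 for II, 0.268 and 0.222 for III, 0.383 and 0.351 for IV and 0.314 and 0.285 for V; with CpG-A 0.252 and 0.229 for IV; and with CpG-C 0.137 and 0.153 for IV, -0.036 and -0.026 for V and -0.148 (upper quartile) for I. As shares of all FPKM, CpG-B gave -0.115 for IV and -0.18 for V. Without single libraries, with CpG-A the ranges were -0.328 to -0.125 (I), -0.224 to 0.275 (II), -0.485 to -0.082 (III), -0.013 to 0.098 (IV) and -0.339 to -0.083 (V). With CpG-B they were -0.188 to 0.014, 0.346 to 0.547, -0.192 to 0.072, 0.005 to 0.051 and -0.088 to -0.004, and with CpG-C -0.463 to -0.261, -0.456 to 0.045, -0.381 to -0.117, -0.158 to 0.012 and -0.301 to -0.206.

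Some named genes reversed, none of them past the threshold. Without the 4 libraries numbered 1, Ndufa10 with CpG-A was 0.151, Atp5s was -0.068, -0.383 and -0.36 with CpG-A, CpG-B and CpG-C, and Cox6b2 with CpG-C was -1.067. When single libraries were left out, Atp5s ranged from -0.253 (without control replicate 1) to 2.421 with CpG-B and from -0.332 (without control replicate 1) to 2.342 with CpG-C, and Cox6b2 from -0.313 (without CpG-C replicate 1) to 2.272 with CpG-C. Sco1 and Cycs with CpG-B stayed past the threshold when single libraries were left out, with adjusted p-values up to 0.0118 and 0.0173.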
